A study of Mus musculus with 7 samples.

Results

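The miR-181 family was followed in small RNA sequencing of extracellular vesicles, small membrane packets shed by cells, isolated from the adipose tissue of male C57BL/6J mice. Its 4 guide-strand entries, mmu-miR-181a-5p, mmu-miR-181b-5p, mmu-miR-181c-5p and mmu-miR-181d-5p (written below without the mouse prefix), were taken by name from the 1084 entries of the combined count table, and all 4 were present. The Chow group (4 libraries, Chow 1 to Chow 4) came from mice fed chow and the HFD group (3 libraries, HFD 1 to HFD 3) from mice fed a high-fat diet, with 12 weeks given in the series' design text, wording that may mean the length of the diet or the age of the mice. All groups share the C57BL/6J background and male sex, and no transgene or other treatment is named. Fat depot and whether a library holds 1 animal or a pool are not stated in the labels, so p-values measure the spread between libraries, which may be technical.

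A microRNA (miRNA) is a short RNA that guides the silencing of messenger RNAs, mainly through its seed, the bases near its 5′ end that pair with the target. The miR-181 family is best known from lymphocytes, where miR-181a tunes the strength of T cell receptor signalling. In mouse endothelium miR-181b is known to dampen NF-kappaB signalling, and in mouse white fat miR-181 has been linked to energy expenditure and insulin sensitivity. Each hairpin precursor yields a 5p and a 3p arm, and in this family the 5p arm is the one usually kept.

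The mature sequences of the 4 members are shown because they set how far the entries can be told apart. They are from RefSeq (GRCm38.p6), written 5′ to 3′, with the seed (bases 2 to 8) in capitals.
miR-181a-5p: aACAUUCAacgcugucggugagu
miR-181b-5p: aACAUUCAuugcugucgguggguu
miR-181c-5p: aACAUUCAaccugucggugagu
miR-181d-5p: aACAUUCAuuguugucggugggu
The 4 members share the seed ACAUUCA, and no other of the 1679 mature mouse miRNA names in the RefSeq table has it. Positions are counted from 1 at the 5′ end. Relative to miR-181a-5p, miR-181b-5p carries A9U, C10U and A21G and is 24 bases long against 23. Relative to miR-181b-5p, miR-181d-5p carries C12U and lacks the last base. miR-181c-5p, with 22 bases, is 1 edit away from miR-181a-5p. Whether the authors' alignment allowed mismatches is not given in the sources used here, so reads may have moved between miR-181b and miR-181d. An exchange between miR-181a and miR-181c would need a gap in the alignment, since without a gap they differ at 11 positions.

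The family is encoded at 3 pairs of precursors (RefSeq coordinates on GRCm38, with overlapping genes from GENCODE). The Mir181a-1 and Mir181b-1 precursors lie on the plus strand at chr1:137966455-137966541 and chr1:137966639-137966718, 97 bases apart, within introns of the noncoding gene Gm4258. Mir181b-1 also lies inside an exon of the lincRNA A430106G13Rik, which the end of Mir181a-1 touches. The Mir181a-2 and Mir181b-2 precursors lie on the plus strand at chr2:38852735-38852810 and chr2:38853830-38853918, 1019 bases apart, antisense to introns of Nr6a1, a gene for an orphan nuclear receptor, and Mir181b-2 also lies antisense to an exon of the noncoding entry Gm44144. The Mir181d and Mir181c precursors lie on the minus strand at chr8:84178716-84178787 and chr8:84178873-84178961, 85 bases apart, in introns of Nanos3, a germ cell gene. miR-181a-5p and miR-181b-5p each have identical sequence at both of their loci, so their counts do not show which locus was used.

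Total counts per library ranged from 48840 (Chow 3) to 5941955 (HFD 3). Chow 2 (180694) and Chow 3 were the shallowest, and a count of 0 there allows up to 3 counts, or 14.1 and 66.1 normalised CPM (CPM, the count rescaled by the TMM-adjusted library total), against 0.464 to 1.99 in the other 5 libraries. The fat tissue list summed to between 428999 and 880113 normalised CPM in Chow and between 242744 and 299942 in HFD. Most of each sum was miR-148a-3p alone, between 371615 and 804669 in Chow and between 193171 and 243230 in HFD. Also on the list, miR-26a-5p stood between 7402 (Chow 3) and 22007 (HFD 3) and miR-193b-3p between 4.70 (Chow 2) and 29.6 (Chow 4). The sum thus mainly follows 1 entry, and abundance varied widely between the listed miRNAs. Vesicles of many cells were sequenced together, so fewer vesicles of a cell type and less miRNA per vesicle cannot be told apart.

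The miR-181 family was a minor part of the vesicle cargo. Its 4 members together held 0.116%, 0.198%, 0.0819% and 0.224% of the counts in Chow 1 to Chow 4, and 0.0773%, 0.148% and 0.159% in HFD 1 to HFD 3. The Chow mean was 0.155% ± 0.0670 (SD, n = 4) and the HFD mean was 0.128% ± 0.0443 (SD, n = 3), with overlap between the diets. Exact binomial (Clopper-Pearson) 95% intervals, which cover counting error only, were widest for Chow 3 at 0.0585% to 0.112%, on 40 counts, and spanned 0.156% to 0.162% for HFD 3, on 9434 counts. The lowest share was that of HFD 1, and without it the HFD mean was 0.154%. In counts without miR-148a-3p, the most abundant miRNA, the family held a mean of 0.297% in Chow and 0.167% in HFD.

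The members kept the order miR-181a, miR-181b, miR-181d and miR-181c in 7 of 7 libraries. By mean normalised CPM over the 7 libraries, miR-181a-5p ranked 61, miR-181b-5p 115, miR-181d-5p 144 and miR-181c-5p 312 of all entries. miR-181a-5p, at a mean of 977 normalised CPM, stood between miR-128-3p (988) and miR-141-3p (977). miR-181d-5p, at 157, stood just below miR-107-3p (157). These neighbours differed by far less than the spread between libraries. The mean of miR-181c-5p draws on 2 counts in Chow 3, below that library's floor, so its place is uncertain. Within single libraries the rank of miR-181a-5p ran from 48 (Chow 2) to 80 (HFD 1). That of miR-181c-5p ran from 279 (Chow 4) to 401 (HFD 1) in the 5 deeper libraries.

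None of the 4 members passed the test for a difference with diet. All 4 had a log2 fold change below 0, that is, a lower fitted level in HFD. The comparison asks which vesicle miRNAs differ with diet. In edgeR's quasi-likelihood test over all miRNAs that passed the low-count filter, 11 of 385 (2.86%) passed an adjusted p of 0.05, 8 of them higher (2.08%) and 3 lower (0.779%) in HFD, and 0 of the 4 members did. At an unadjusted p under 0.05 there were 93 of 385 (24.2%), again with no member. The median log2 fold change was -0.88 for the members and -0.02 for all tested miRNAs, of which 195 (50.6%) lay below 0. The diets overlapped for each member, whereas 86 of the 385 (22.3%) did not overlap, 50 higher (13%) and 36 lower (9.35%) in HFD. For miR-181b-5p and miR-181d-5p the overlap came from the shallow library Chow 3 alone, on 8 and 5 counts. For miR-181c-5p it came from Chow 2 alone, on 0 counts.

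miR-181a-5p, the member best studied in T cells, had 1515, 259, 25 and 3338 counts in Chow 1 to Chow 4 and 1063, 1952 and 6900 in HFD 1 to HFD 3. These were 1005, 1217, 551 and 1592 normalised CPM in Chow and 496, 909 and 1067 in HFD. Chow 3 and HFD 1 were the low libraries of their diets, and HFD 2 and HFD 3 lay within the Chow range. The means were 1091 ± 434 (SD, n = 4) and 824 ± 295 (SD, n = 3). The log2 fold change was -0.42 (SE 0.46, 95% interval -1.42 to 0.58, edgeR adjusted p = 0.660), with an interval that held both lower and higher levels in HFD. With 1 library left out it lay between -0.64 (without HFD 3) and -0.03 (without HFD 1), and it was -0.20 without Chow 4 and -0.63 without Chow 3.

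miR-181b-5p, the member described in endothelial inflammation, stood at 331, 324, 176 and 582 normalised CPM in Chow 1 to Chow 4, on 498, 69, 8 and 1221 counts. In HFD 1 to HFD 3 it stood at 144, 232 and 258, on 308, 499 and 1667 counts. HFD 1 was below every Chow library, and the other HFD libraries lay above Chow 3 and below the rest. The means were 353 ± 168 in Chow and 211 ± 59.8 in HFD, with a log2 fold change of -0.78 (SE 0.48, 95% interval -1.83 to 0.28, edgeR adjusted p = 0.347). It was -0.44 without HFD 1 and -0.44 without Chow 4.

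miR-181d-5p, from the Nanos3 locus, stood at 279, 136, 110 and 263 normalised CPM in Chow 1 to Chow 4, on 421, 29, 5 and 551 counts. In HFD 1 to HFD 3 it stood at 67.3, 113 and 128, on 144, 242 and 826 counts. The 2 deep Chow libraries, Chow 1 and Chow 4, were more than 2 times each HFD library, and Chow 2 and Chow 3 were close to HFD 2 and HFD 3. The means were 197 ± 86.3 in Chow and 103 ± 31.5 in HFD. Its log2 fold change of -0.99 (SE 0.50, 95% interval -2.08 to 0.09, edgeR adjusted p = 0.244) had the smallest adjusted p of the 4 members, and it was -0.62 (edgeR adjusted p = 0.640) without HFD 1 and -1.40 (edgeR adjusted p = 0.116) without Chow 2 and Chow 3.

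miR-181c-5p, encoded beside miR-181d, was scarce, with 19, 0, 2 and 32 counts in Chow 1 to Chow 4 and 8, 15 and 41 in HFD 1 to HFD 3. In normalised CPM these were 12.6, 0, 44.1 and 15.3 in Chow and 3.74, 6.99 and 6.34 in HFD. Neither Chow 2 nor Chow 3 rose above its own floor. Chow 1 and Chow 4 were above each HFD library. The means were 18.0 ± 18.6 in Chow and 5.69 ± 1.72 in HFD. The log2 fold change was -1.19 (SE 0.69, 95% interval -2.70 to 0.32, edgeR adjusted p = 0.318), and -1.28 (edgeR adjusted p = 0.193) without Chow 2 and Chow 3.

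**Figure D1:**
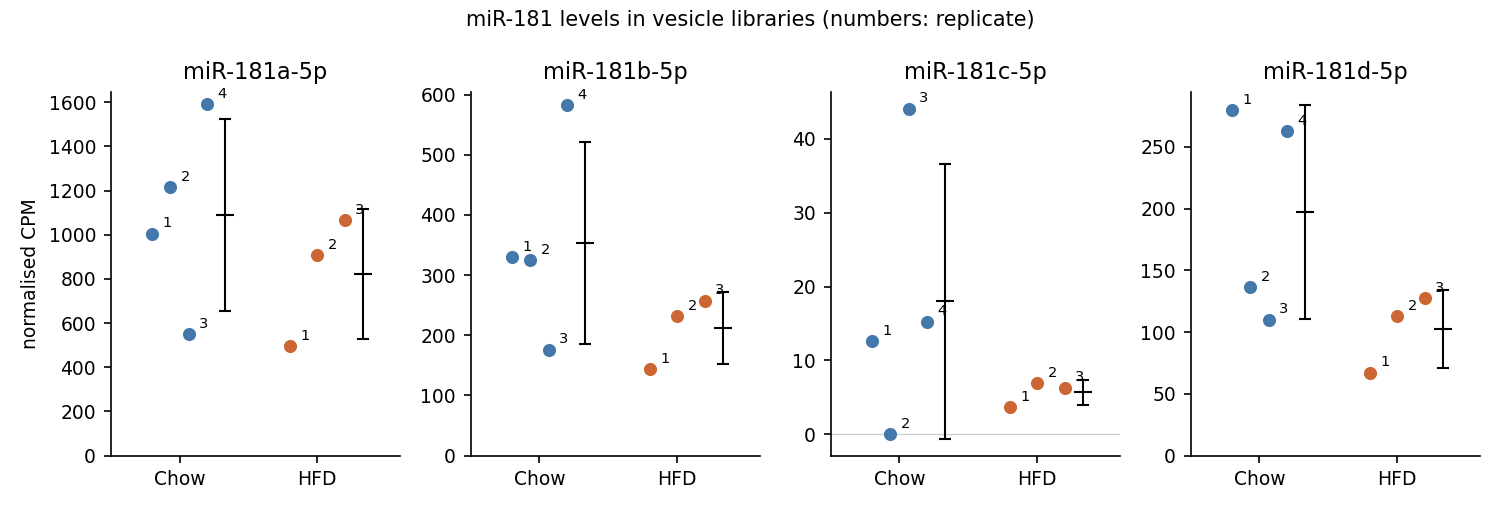
Normalised CPM (y axis, linear, a scale per panel) of the 4 miR-181 members in the Chow and HFD libraries. Points are libraries, numbered by replicate, and bars are the mean and SD. The diets overlap in each panel, for miR-181b-5p and miR-181d-5p through Chow 3 alone and for miR-181c-5p through Chow 2 alone. HFD 1 has the lowest value among the HFD libraries in each panel.

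**Figure D2:**
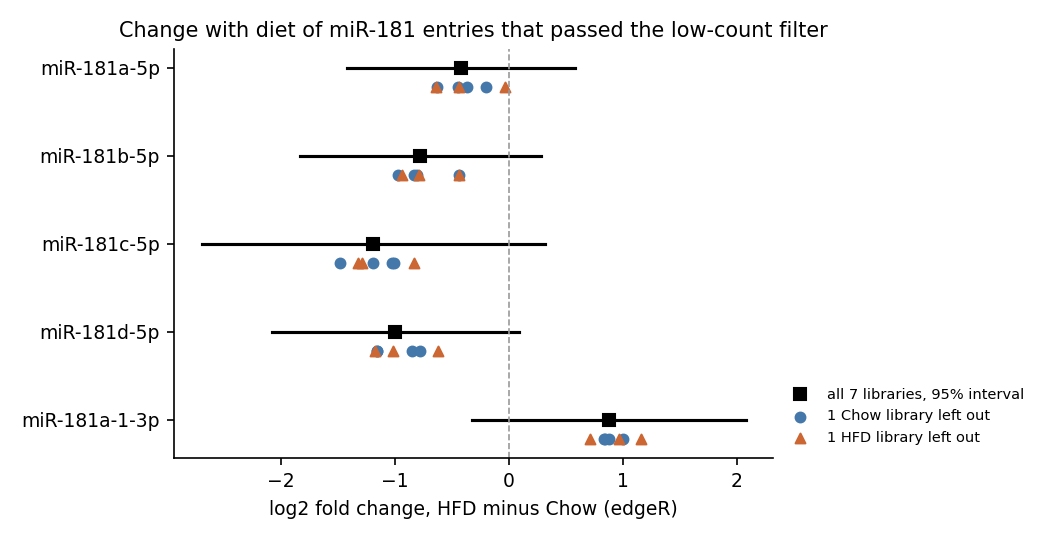
Log2 fold change, HFD minus Chow, from edgeR for the 4 members and for miR-181a-1-3p, with squares and lines for the fit of all 7 libraries and its 95% interval, and coloured symbols for fits without 1 library. Each interval includes 0; the members lie between -1.19 and -0.42, and the partner arm lies at 0.88.

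The make-up of the family was described next, because ratios within a library do not depend on scaling. miR-181a-5p held 61.8%, 72.5%, 62.5% and 64.9% of the family counts in Chow 1 to Chow 4 and 69.8%, 72.1% and 73.1% in HFD 1 to HFD 3. Chow 2 lay within the HFD range, and the other Chow libraries were lower. miR-181b-5p held between 19.3% and 23.7% in Chow and between 17.7% and 20.2% in HFD. miR-181d-5p held between 8.12% (Chow 2) and 17.2% (Chow 1) in Chow and between 8.76% and 9.46% in HFD. miR-181c-5p held between 0.435% and 0.554% in HFD and between 0 and 0.775% in Chow outside Chow 3, where 2 counts of 40 gave 5% with a 95% interval of 0.611% to 16.9%.

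No ratio to miR-181a-5p passed the test for a difference with diet. Per 100 counts of miR-181a-5p, miR-181b-5p had 32.9, 26.6, 32 and 36.6 counts in Chow 1 to Chow 4 and 29.0, 25.6 and 24.2 in HFD 1 to HFD 3. The difference of the mean log2 ratio, HFD minus Chow, was -0.30 (exact two-sided permutation p = 0.0857, adjusted p = 0.257 over the 3 ratios). miR-181d-5p had 27.8, 11.2, 20 and 16.5 counts per 100 of miR-181a-5p in Chow and 13.5, 12.4 and 12.0 in HFD, a difference of -0.54 (exact permutation p = 0.2, adjusted p = 0.3). For miR-181c-5p the difference was -0.77 (exact permutation p = 0.629). It rested on the shallow libraries Chow 2, with 0 counts, and Chow 3, with 2 counts. The difference was 0.22 without Chow 3, -1.67 without Chow 2 and -0.63 without both. The smallest p that the 35 assignments allow is 0.0286.

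The HFD libraries were close to one another in the ratio of the most similar members. Per 100 counts of miR-181b-5p there were 46.8, 48.5 and 49.6 counts of miR-181d-5p in HFD 1 to HFD 3. In Chow 1 to Chow 4 the ratio was 84.5, 42.0, 62.5 and 45.1, so Chow 2 and Chow 4 lay just below the HFD libraries and Chow 1 stood highest. The value of Chow 3 rests on 5 and 8 counts. With both entries summed before the fit, the log2 fold change was -0.83 (edgeR adjusted p = 0.303).

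**Figure D3:**
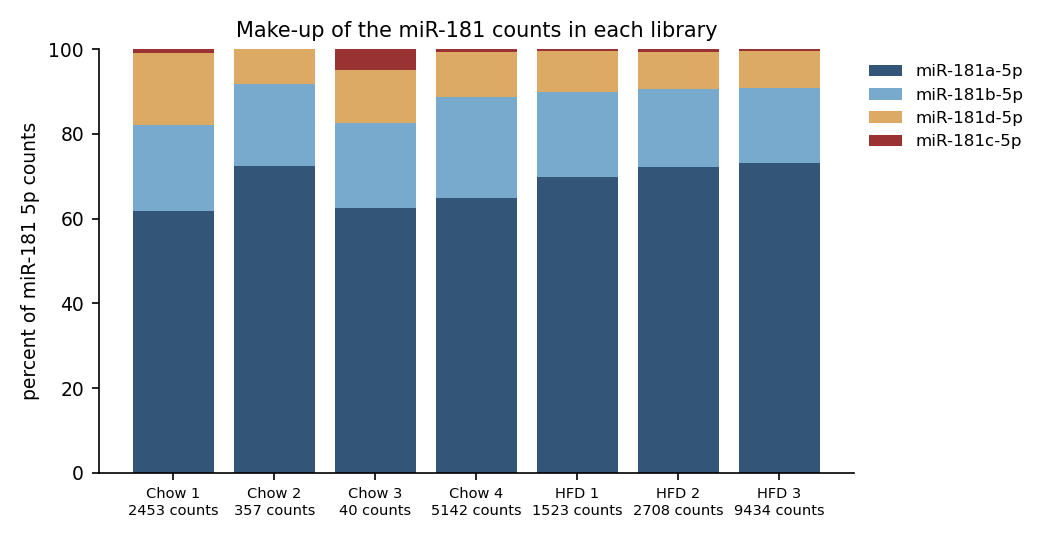
Percent of the miR-181 5p counts (y axis, linear) held by each member in each of the 7 libraries, with the family's count under each bar. miR-181a-5p holds between 61.8% and 73.1%, and miR-181c-5p stands out only in Chow 3, on 2 counts.

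The partner arms were then examined, since the 3p arms of miR-181a differ between its loci. The hairpin of Mir181a-1 (RefSeq, GRCm38.p6, plus strand, 87 bases) is shown with the 5p arm and then the 3p arm in capitals, and the mature 3p arms with their seeds in capitals.
Mir181a-1: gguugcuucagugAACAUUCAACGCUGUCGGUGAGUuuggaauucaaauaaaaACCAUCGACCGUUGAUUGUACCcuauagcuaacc
miR-181a-1-3p: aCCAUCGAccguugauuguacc
miR-181a-2-3p: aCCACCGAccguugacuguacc
From miR-181a-1-3p to miR-181a-2-3p the substitutions are U5C and U16C, the first of them inside the seed. miR-181c-3p shares the seed of miR-181a-1-3p, and its counts were 5 and 9 in Chow 1 and Chow 4 and 4, 5 and 9 in HFD 1 to HFD 3.

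Of the 6 partner arms, 5 were in the table and 1, miR-181a-1-3p, passed the low-count filter. miR-181a-1-3p had 8, 1, 0 and 10 counts in Chow 1 to Chow 4 and 16, 18 and 69 in HFD 1 to HFD 3. These were 5.31, 4.70, 0 and 4.77 normalised CPM in Chow and 7.47, 8.38 and 10.7 in HFD. The diets did not overlap, as for 22.3% of all tested miRNAs, but the Chow 2 and Chow 3 values lay under their floors. The log2 fold change was 0.88 (SE 0.55, 95% interval -0.32 to 2.08, edgeR adjusted p = 0.347), which did not pass. The fitted change was thus of opposite sign to that of miR-181a-5p, the other arm of the same precursor, and neither was called.

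Relative to both arms together, miR-181a-1-3p made up 5.25, 3.85, 0 and 2.99 per 1000 counts in Chow 1 to Chow 4 and 14.8, 9.14 and 9.90 per 1000 in HFD 1 to HFD 3. The HFD values were above the Chow values, but those of Chow 2 and Chow 3 rest on 1 and 0 reads, with 95% intervals that reached 21.2 and 137 per 1000. The intervals of Chow 1 (2.27 to 10.3) and Chow 4 (1.43 to 5.49) also met at least 1 of those of HFD 1 (8.50 to 24.0), HFD 2 (5.42 to 14.4) and HFD 3 (7.71 to 12.5). Because miR-181a-5p also comes from the Mir181a-2 locus, the ratio mixes both loci. The difference of this ratio between diets was not tested.

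The other partner arms had few counts, and none passed the low-count filter. miR-181a-2-3p had 8, 0, 0 and 5 counts in Chow and 2, 10 and 25 in HFD, so over each diet miR-181a-1-3p had the larger sum, with 19 against 13 counts in Chow and 103 against 37 in HFD. miR-181b-1-3p had 2 counts in Chow 1 and in Chow 4 and 5, 5 and 9 in HFD 1 to HFD 3. miR-181b-2-3p had no more than 3 counts in any library. For miR-181b-1-3p, miR-181b-2-3p and miR-181c-3p the separate Chow table holds no value in Chow 2 and Chow 3, and the combined table holds 0.

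**Figure D4:**
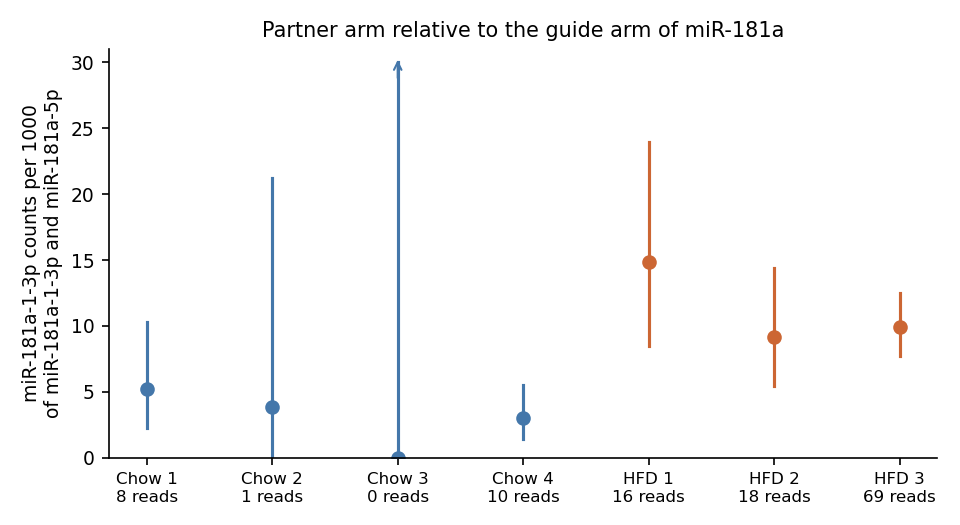
Counts of miR-181a-1-3p per 1000 counts of miR-181a-1-3p and miR-181a-5p together (y axis, linear) in each library, with exact binomial 95% intervals and the number of miR-181a-1-3p reads under each name. The HFD libraries lie between 9.14 and 14.8 and the Chow libraries between 0 and 5.25; the interval of Chow 3 extends beyond the axis to 137.

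Other miRNAs of the settings in which miR-181 is known were read beside it. The lists used share members and were chosen with earlier results of these data known. An excess over all tested miRNAs is therefore a description and not support. Of 10 miRNAs listed for lymphocyte development and activation, 4 rose in HFD (miR-142a-5p, miR-142a-3p, miR-342-3p and miR-223-3p) and 0 fell in edgeR. Over all tested miRNAs, 2.08% were called higher and 0.779% lower. The miR-142a entries are arms of 1 precursor, and all 4 are also on the leukocyte list, so they do not single out lymphocytes. The rest of the lymphocyte list did not pass, among them miR-150-5p (edgeR adjusted p = 0.0642) and miR-155-5p (edgeR adjusted p = 0.718). The median log2 fold change of the list was 1.64, against -0.02 for all tested miRNAs. For miR-342-3p, abundant in lymphocytes, the value was 2.64 (SE 0.53, edgeR adjusted p = 0.0328). The 11 miRNAs of the leukocyte list summed to between 22382 and 59902 normalised CPM in Chow and between 114281 and 131783 in HFD. Most of this was miR-21a-5p alone, between 18394.5 and 52603 in Chow and between 102449 and 112992 in HFD. The leukocyte sum therefore largely tracks that entry and says little about the rest of its list. Of the 11, 5 rose, the 4 named and miR-21a-5p, 0 fell, and the others did not pass. The summed members of miR-181 lay between 881 and 2452 normalised CPM in Chow and between 711 and 1459 in HFD. Of 10 miRNAs known to act on NF-kappaB signalling, 2 rose (miR-21a-5p and miR-223-3p) and 0 fell, with a median of 0.73. The testis and epididymis list, of which 0 of 10 passed, had a median of 1.54. Of 3 tested endothelial markers 1 fell, miR-126a-3p, by 1.71 on the log2 scale (SE 0.41, edgeR adjusted p = 0.0491). The difference between miR-181 and these lists was not tested, and the calls rest on single libraries: without Chow 4, without HFD 2, without HFD 3, or without both Chow 2 and Chow 3, 0 miRNAs were called higher and miR-126a-3p did not pass. Without Chow 2 alone, neither the 5 named rises nor miR-126a-3p passed.

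The miRNAs that kept the steadiest ratio to the summed members were found among 233 tested miRNAs with at least 1 count in every library. Likeness was the SD over the 7 libraries of the log2 ratio to the summed members. A small SD means a ratio that varied little, which a miRNA with a nearly level course can also give. Whether the smallest SDs among the 233 differ from chance was not tested. miR-107-3p, a miRNA linked to insulin sensitivity in mice and a close copy of miR-103-3p, with which it may exchange reads, had the smallest SD, 0.27, against a median of 0.89 over the 233. Its means were 183 normalised CPM for Chow and 123 for HFD. Next came miR-434-3p (SD 0.38), miR-434-5p (SD 0.39), miR-149-5p (SD 0.40) and miR-541-5p (SD 0.41). None of these 5 passed the test for diet, with log2 fold changes between -0.81 (miR-541-5p) and -0.04 (miR-434-3p).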

How the data were processed

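Small RNA of adipose tissue vesicles was counted in 7 libraries. The authors deposited raw counts of reads for each mature miRNA, per the file headers, and Bowtie is named in the submitters' processing notes. The counting program is not given in the sources used here, nor are build and filters. The combined table was used, and 0 values differed between it and the separate tables apart from blanks held as 0. Depth is given in the report.

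Counts were tested in R 4.3.3 with edgeR 4.0.16 (quasi-likelihood F test, TMM scaling, filterByExpr, diet as the only term, Benjamini-Hochberg adjustment over 385 miRNAs, threshold 0.05). Standard errors and 95% intervals came from the F statistic. Ratios to miR-181a used a pseudocount of 0.5 and exact two-sided permutation over 35 assignments (Python 3.11.15, scipy 1.17.1). Alternatives were other scalings and filters, DESeq2 1.42.0, limma-voom (limma 3.58.1), omitted libraries, a replicate block, omission of the 3 most abundant miRNAs, miR-181b and miR-181d summed, a pseudocount of 1 and totals without miR-148a-3p. The edgeR script was tested on simulated data.

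The named miRNAs are the 4 members, their 6 partner arms, their nearest neighbours in abundance and the 5 with the steadiest ratio to the members. List members past the threshold are named too, with some that did not pass. Of the neighbours, a subset is named. The members and lists were chosen with earlier results of these data known. Of the other cell type lists, 1 of 8 stromal and smooth muscle miRNAs fell, miR-143-3p, and 0 rose. Of 10 fat tissue miRNAs 2 fell, miR-148a-3p and again miR-143-3p, and 0 rose. Over all tested miRNAs 0.779% were called lower. The log2 fold change was -2.58 for miR-143-3p (edgeR adjusted p = 0.0224) and -1.39 for miR-148a-3p (edgeR adjusted p = 0.0328). Among fat tissue miRNAs that did not pass, miR-26b-5p stood at 1.28 and miR-30a-5p at -0.71. No member of the erythroid, striated muscle, hepatocyte, neural, epithelial or testis and epididymis lists passed.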

Additional observations from a re-analysis of the deposited data

Results flagged for a closer look

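In Chow, miR-181a-1-3p at 0 in Chow 3 stood apart from the other 3 libraries, with a gap of 0.885 of the group's range. For miR-181b-2-3p, Chow 4 stood apart on 2 counts from 3 libraries at 0, with a gap of 1 of the range. The floor of Chow 3 is 66.1 normalised CPM, far above both levels. Such a gap marks about 5% of groups of 4 by chance for values without ties. That rate need not hold for counts this low.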

How the results depend on the processing

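No setting brought a member past the threshold (adjusted p between 0.116 and 0.986 over all settings). The 4 members had a log2 fold change below 0 under every setting that gave a value. The log2 fold change ranged over all settings from -0.66 to -0.03 for miR-181a-5p, -1.12 to -0.40 for miR-181b-5p, -1.48 to -0.81 for miR-181c-5p and -1.40 to -0.62 for miR-181d-5p. With 1 library left out it ranged from -0.64 to -0.03, -0.97 to -0.44, -1.48 to -0.83 and -1.17 to -0.62. A minimum of 10 CPM in 3 libraries removed miR-181c-5p. Library size scaling moved the median of all tested miRNAs by 0.33 and RLE scaling by 0.11, and relative to that median miR-181a-5p stood at -0.40 with TMM, -0.43 with RLE and -0.48 with library size. The log2 ratio to miR-181a ranged with 1 library left out from -0.39 to -0.24 for miR-181b, from -0.76 to -0.33 for miR-181d and from -1.67 to 0.22 for miR-181c. Its reversal, 0.22 without Chow 3, came with the removal of a value resting on 2 counts. That fit kept the Chow 2 value, which the pseudocount sets on 0 counts, and without Chow 2 and Chow 3 the difference was -0.63. With a library left out, the smallest p these permutation tests allow is 0.0667 without an HFD library and 0.1 without a Chow library. The difference in the members' share of counts, HFD minus Chow, was -0.0267 percentage points, between -0.0510 and -0.00125 with 1 library left out, and -0.130 without miR-148a-3p in the total.

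The number of miRNAs called over the whole table, 11, became 18 with RLE (14 higher, 4 lower), 39 with library size (36 higher, 3 lower), 62 without the filter, 41 in DESeq2, 19 in limma-voom with sample weights and 17 without the 3 most abundant miRNAs. It was 0 without Chow 2 and Chow 3 (95 at an unadjusted p under 0.05) and between 0 (without HFD 2, 57 at an unadjusted p under 0.05) and 32 with 1 library left out. The causes were not tested. With replicate number as a block 23 were called, and miR-181a to miR-181d had log2 fold changes of -0.19, -0.43, -1.20 and -0.76. Same-numbered libraries did not deviate together (correlations of 0.07, -0.16 and 0.04 across miRNAs). Chow 2 and Chow 3 are shallow, so these correlations cannot exclude a pairing, and the labels name none.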
